A study of Mus musculus with 12 samples.

Results

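Laminin-332 is a protein of the basement membrane, the thin sheet of matrix on which an epithelium sits, and the hemidesmosome is the membrane junction that holds the epithelial cell to it. The genes described are 7: Lama3 and Lamb3, which encode chains of laminin-332; Itga6 and Itgb4, which encode the integrin that binds it; Cd151, Plec and Col17a1, which encode partners of that integrin. They were picked by name, as a known junction, with earlier results of these data in view. All 7 were present among the 22377 genes of the deposited table, and their 43 transcripts were found among 74659 listed transcripts. RNA of whole mouse colon was sequenced in 12 libraries, 4 for each treatment label: control, DSS and FGF1. Dextran sulfate sodium (DSS) is a sulfated polymer that damages the epithelium of the large bowel. FGF1 is fibroblast growth factor 1, named in the series' design as a recombinant protein used in mice with inflamed bowel. Whether animals of the FGF1 group had DSS as well is not stated, nor is a dose, duration, strain, age or sex. Nothing in the labels says that the 4 samples of a group came from separate mice, so p-values measure only the spread between these samples.

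Laminin-332 is a heterotrimer, and its α3 and β3 chains are the products of Lama3 and Lamb3. The integrin α6β4 binds it from the basal surface of the cell, and the long cytoplasmic tail of β4 binds plectin, a giant linker protein that reaches the keratin filaments. In skin the junction also holds collagen XVII, the product of Col17a1, and a skin form of dystonin, whereas simple epithelia such as the gut lining are known for a plainer junction of α6β4 and plectin. CD151 is a tetraspanin, a small membrane protein that binds the laminin-binding integrins.

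In these colons 6 of the 7 genes were expressed at 2.49 FPKM or more in each library, and Col17a1 was near 0 in all 12. FPKM is the number of fragments divided by transcript length and by the size of the library, so that levels of different genes can be set side by side. Averaged over the 12 libraries, the order was Cd151 at 55.0 FPKM, Lamb3 at 35.2, Itga6 at 27.6, Itgb4 at 26.8, Plec at 22.5, Lama3 at 5.54 and Col17a1 at 0.014. Cd151 was above Lamb3 in 12 of 12 libraries and Lamb3 above Itga6 in 10 of 12. The next neighbours did not separate: Itga6 was above Itgb4 in 8 of 12 libraries and Itgb4 above Plec in 7 of 12. Plec was above Lama3 in 12 of 12, by as little as 1.04 times. The 2 integrin genes stood close together in each library, with Itga6 at 0.733 to 1.52 times Itgb4.

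**Figure D1:**
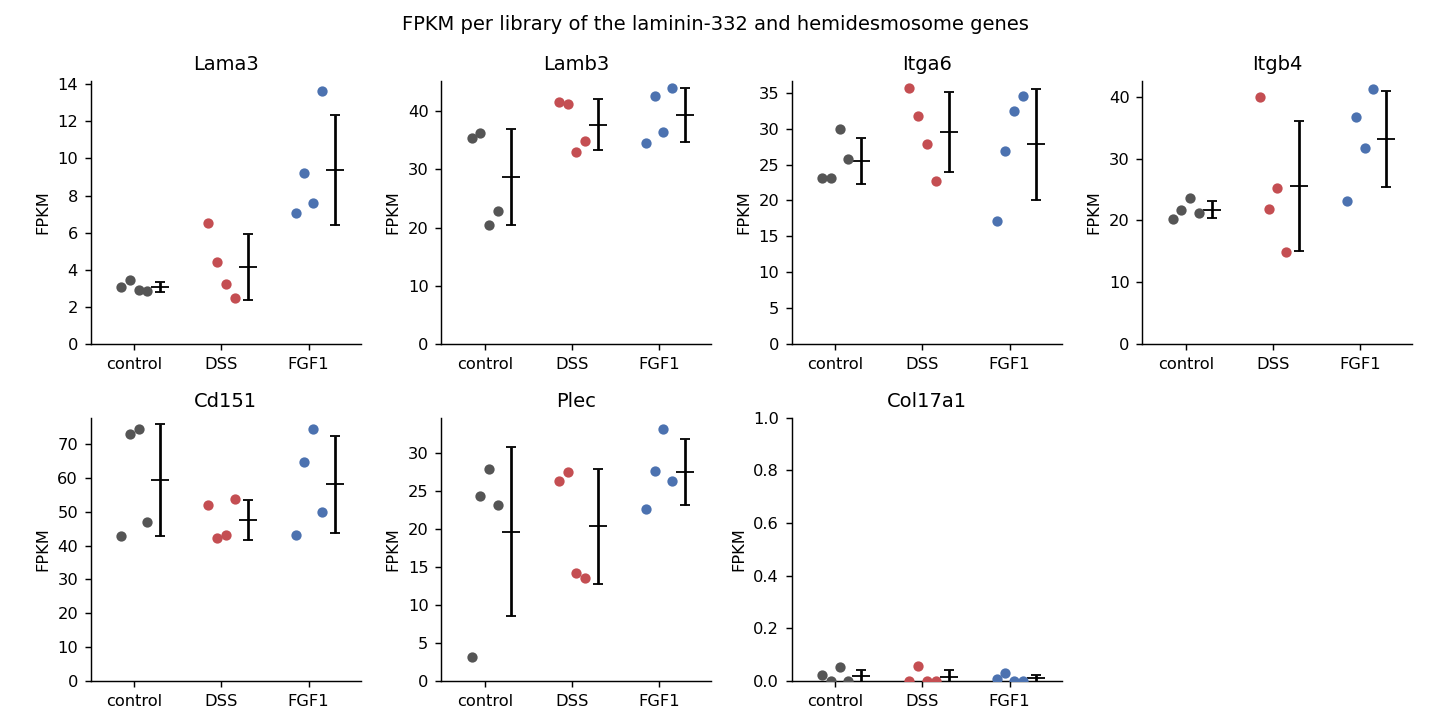
Level of each gene in each library, in FPKM, for the 4 control, 4 DSS and 4 FGF1 libraries, with a separate vertical axis per gene; points are libraries and the bar gives the mean ± SD. All 4 FGF1 points of Lama3 (7.06 to 13.6 FPKM) lie above the control and DSS points, 1 control library stands low in Plec (3.19 FPKM), and Col17a1, drawn on an axis of 0 to 1 FPKM, lies near 0 throughout.

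None of the 6 genes that passed the filter (at least 1 FPKM in at least 4 libraries) was called in any of the 3 comparisons. A call here is an adjusted p under 0.05 in limma's test on log2(FPKM + 1), with Benjamini-Hochberg adjustment over the 12578 genes tested; fold changes on this scale understate those of low genes. In DSS against control 12.3% of tested genes were called, 2.23% higher and 10.1% lower, so that 0 of 6 is near the background. In FGF1 against DSS 0.0557% were called (0.0398% higher and 0.0159% lower), and in FGF1 against control 0.0795% (0.00795% higher and 0.0716% lower). At an unadjusted p under 0.05 the numbers of genes were 3483, 1561 and 1753. The median log2 fold change of the 6 genes was 0.24 in DSS against control, 0.34 in FGF1 against DSS and 0.52 in FGF1 against control, and that of all tested genes was -0.0705, 0.0456 and -0.0394. Under median-of-ratios scaling of the libraries the median of all genes in DSS against control was 0.0537, and the calls split into 677 higher and 982 lower in place of 280 and 1269. The 6 genes moved up as well under that scaling: Lama3 gave 0.384, Lamb3 0.552, Itga6 0.331, Itgb4 0.278, Plec 0.438 and Cd151 -0.134. The last 2 comparisons share the FGF1 libraries, the first 2 share the DSS libraries and the first and last share the controls, so the 3 sets of values are not independent.

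**Figure D2:**
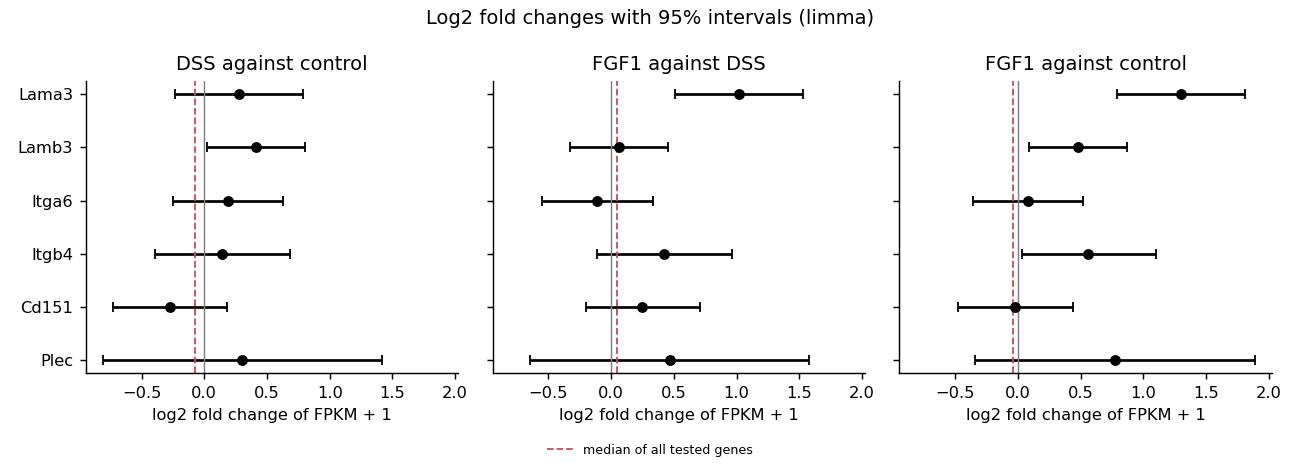
Log2 fold change of FPKM + 1 with its 95% interval (horizontal axis) for the 6 tested genes in each comparison; points are limma estimates from 4 against 4 libraries, and the dashed line is the median of all tested genes. The interval of Lama3 lies above 0 in FGF1 against DSS (0.51 to 1.53) and in FGF1 against control (0.79 to 1.81), as do those of Lamb3 in DSS against control (0.02 to 0.80) and FGF1 against control (0.09 to 0.87) and of Itgb4 in FGF1 against control (0.03 to 1.10), and that of Plec is the widest in each panel.

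Lama3 gave the largest differences of the 6 genes in both comparisons with FGF1. It encodes the α3 chain and lies on chromosome 18 of GRCm38 from 12333819 to 12583013, plus strand. The control libraries held 3.08, 3.47, 2.93 and 2.88 FPKM, a narrow range. The DSS libraries held 6.54, 4.40, 3.24 and 2.49 FPKM, on both sides of the controls. The FGF1 libraries held 7.06, 9.19, 7.60 and 13.6 FPKM, all above every DSS and control library. The mean was 9.36 ± 2.96 FPKM in FGF1 against 4.17 ± 1.77 in DSS and 3.09 ± 0.266 in controls (SD, n = 4 each), which is 2.25 and 3.03 times as much. Groups that do not overlap were found for 6.28% of tested genes in FGF1 against DSS, for 10.3% in FGF1 against control and for 16.9% in DSS against control, where none of the 6 genes showed it. The log2 fold change was 1.02 against DSS (SE 0.23, limma adjusted p = 0.115) and 1.3 against control (SE 0.23, limma adjusted p = 0.066), neither a call. DSS against control gave 0.28 (95% interval -0.23 to 0.79).

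Single libraries and settings moved Lama3 across the threshold. Against control it was called in 5 of 26 alternatives: with another library scaling (limma adjusted p = 0.0423), in a fit of the 2 groups alone (0.0384), without DSS library 1 (0.037), without FGF1 library 3 (0.0491) and without DSS libraries 3 and 4 (0.034). Over the 26, the adjusted p ran from 0.034 to 1. With only the gene's most abundant transcript, Lama3-201, as its value, the direction turned, to -0.278 against control and -0.66 against DSS. Against DSS it was called in 1 of 26, without DSS library 1, at a log2 fold change of 1.23 (adjusted p = 0.0423), and the adjusted p ran to 0.672. On average, general epithelial markers were higher in each DSS and FGF1 library than in every control, while DSS and FGF1 libraries overlapped. The mean log2(FPKM + 1) of 9 such markers was 7.85 to 7.97 in controls, 8.06 to 8.18 in DSS and 8.08 to 8.33 in FGF1. With that mean as a covariate the log2 fold change of Lama3 was 0.632 against control (adjusted p = 1) and 0.837 against DSS (adjusted p = 0.187). In bulk colon RNA, more epithelial cells and more RNA of a gene per epithelial cell cannot be told apart.

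Lama3 has 2 transcripts, and their balance differed between libraries. Lama3-201 begins at 12333819 and is 10548 bases long, with 75 exons; Lama3-202 begins inside the gene at 12504199 and is 5551 bases long, with 38 exons. They encode the long and the short form of the α3 chain, and the short form is the one best known from laminin-332. Lama3-202 stood at 0.262, 0.674, 1.06 and 0 FPKM in controls and at 1.53, 0.171, 0 and 0 in DSS. In the FGF1 libraries it stood at 6.72, 3.17, 2.78 and 13.2 FPKM, above all 8 other libraries. How often single transcripts separate in this way was not counted over all tested transcripts, so this separation has no background beside it. Lama3-201 stood at 2.82, 2.79, 1.87 and 2.88 FPKM in controls, at 5.01, 4.23, 3.24 and 2.49 in DSS, and at 0.342, 6.02, 4.82 and 0.362 in FGF1. The FGF1 libraries thus split: libraries 1 and 4 held nearly all their Lama3 in the short transcript, and libraries 2 and 3 held both.

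The long transcript held 84.0% ± 15.6 of Lama3 FPKM in controls, 93.2% ± 11.2 in DSS libraries and 34.1% ± 35.1 in FGF1 libraries (SD, n = 4 each). FGF1 and DSS did not overlap, with an exact two-sided permutation p of 0.0286, the smallest that 4 against 4 allows, and 0.257 after adjustment over 18 tests of this kind. FGF1 against control gave an exact permutation p of 0.0571 (adjusted 0.343). The fit on single transcripts put Lama3-202 at a log2 fold change of 2.30 against DSS (SE 0.451, limma adjusted p = 0.187) and 2.16 against control (SE 0.451, limma adjusted p = 0.24). Of 23992 transcripts tested, 2.02% were called in DSS against control, 0.0167% in FGF1 against DSS and 0.0333% in FGF1 against control, and none of the 22 tested transcripts of the 7 genes was among them. A fragment counts for more FPKM in a short transcript than in a long one, so the FPKM were also multiplied by transcript length in kilobases. On that scale (FPKM times kilobases) Lama3 stood at 25.6 to 33.2 in controls, 26.3 to 61.4 in DSS and 40.9 to 81.1 in FGF1. FGF1 and DSS then overlapped, and the log2 fold change fell to 0.675 against DSS (adjusted p = 0.306) and 1.07 against control (adjusted p = 0.135).

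**Figure D3:**
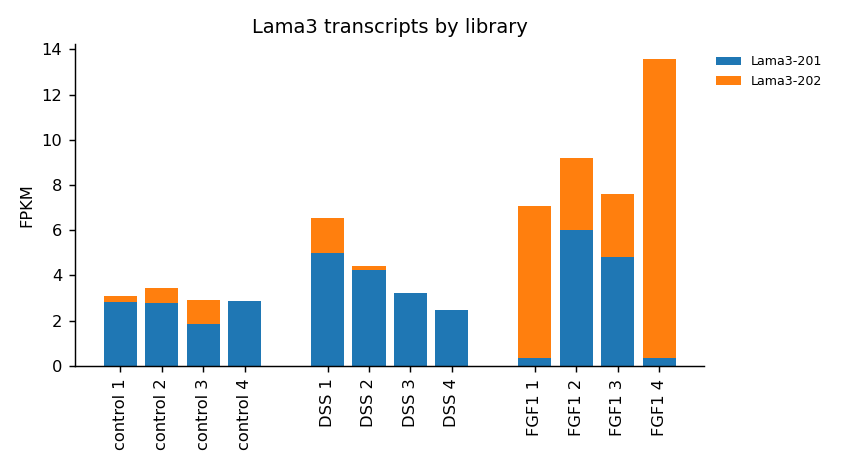
FPKM of the long transcript Lama3-201 and the short transcript Lama3-202, stacked, in each of the 12 libraries. The short transcript is at 2.78 FPKM or more in the 4 FGF1 libraries and at most 1.53 FPKM in the other 8, and in FGF1 1 and FGF1 4 it holds 95.2% and 97.3% of the gene.

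Lamb3, the β3 chain, showed no such split: 1 transcript, Lamb3-201, held at least 99.8% of it in each library. The gene spans bases 193207699 to 193343878 of chromosome 1, plus strand. The control libraries held 35.3, 36.2, 20.5 and 22.8 FPKM, the DSS libraries 41.5, 41.1, 32.9 and 34.9, and the FGF1 libraries 34.4, 42.6, 36.4 and 43.9. Controls 3 and 4 were below all 8 treated libraries, while controls 1 and 2 lay within their range. The log2 fold change was 0.41 in DSS against control (SE 0.18, 95% interval 0.02 to 0.80, limma adjusted p = 0.155) and 0.48 in FGF1 against control (SE 0.18, 95% interval 0.09 to 0.87, limma adjusted p = 0.259). FGF1 and DSS differed by 0.06 (95% interval -0.33 to 0.45), or by -0.00396 with median-of-ratios scaling. Controls 3 and 4 also had the highest smooth muscle marker means of the controls, 8.90 and 8.47 against 7.28 and 7.24. FGF1 library 3 had a smooth muscle marker mean of 8.59, with Lamb3 at 36.4 FPKM. With the smooth muscle mean as a covariate the DSS difference of Lamb3 was 0.15 (adjusted p = 0.799). With the epithelial marker mean as a covariate the direction turned, to -0.0246 in DSS against control (adjusted p = 0.991) and -0.13 in FGF1 against control (adjusted p = 1). Both marker means kept control and DSS libraries apart, and the epithelial mean kept control and FGF1 libraries apart. These fits therefore cannot separate a marker mean from the group.

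Messenger levels of Lamb3 and Lama3 were unequal in each group, with Lamb3 at 3.23 to 14.0 times Lama3 over the 12 libraries.

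The integrin genes are described next, α6 first. Itga6 lies on chromosome 2 (71745616 to 71858416, plus strand) and stood at 23.1, 23.1, 30.0 and 25.8 FPKM in controls, 35.7, 31.8, 27.8 and 22.7 in DSS, and 17.2, 26.9, 32.5 and 34.5 in FGF1. The groups overlapped in each comparison. Its log2 fold change was 0.19 in DSS against control (95% interval -0.25 to 0.63), -0.11 in FGF1 against DSS (-0.55 to 0.33) and 0.08 in FGF1 against control (-0.36 to 0.52). Each interval leaves out a change of 1 in log2 in either direction.

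The α6 chain has alternative cytoplasmic tails, usually called A and B, and the deposited events mark the exon that decides between them. An exon of 130 bases, present in Itga6-201, carries its own stop, so that the tail ends there; Itga6-202 skips it and reads on into the last exon. The coding parts of both tails are shown because the shares below rest on them; they come from the GENCODE vM21 transcripts on GRCm38, and capitals mark the first 15 bases, of which 13 are identical, whereas 34 of the following 90 are.
Itga6 tail of the 130-base exon, chr2:71853534-71853638, plus strand: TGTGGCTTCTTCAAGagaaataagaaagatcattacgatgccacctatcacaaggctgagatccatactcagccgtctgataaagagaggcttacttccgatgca
Itga6 tail of the last exon, chr2:71855854-71856012, plus strand: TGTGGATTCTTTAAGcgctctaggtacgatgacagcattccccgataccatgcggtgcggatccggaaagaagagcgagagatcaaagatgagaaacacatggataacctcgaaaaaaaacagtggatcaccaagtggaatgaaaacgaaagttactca
The first gives 35 codons and the second 53.

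The form with the 130-base exon was Itga6-201, and the form without it was Itga6-202 and Itga6-203. The form with the exon held 54.8%, 55.3%, 29.0% and 40.5% of the FPKM of both forms in controls, 52.7%, 28.2%, 33.0% and 37.1% in DSS, and 46.4%, 45.1%, 38.5% and 44.4% in FGF1. The groups overlapped throughout, and the smallest exact permutation p over the 3 comparisons was 0.343. Another coding transcript of the gene, which ends at 71854951, before the coding part of the last exon, was counted in neither form. It stood at 2.68 to 7.43 FPKM over the 12 libraries, so these shares leave out part of the coding FPKM. Both tails were present in all 12 libraries. The form without the exon was itself assigned to different transcripts. Itga6-202, which is the full coding form, stood at 6.36 to 11.8 FPKM in controls 1 and 2, DSS 1, FGF1 1 and FGF1 2 and at 0.583 to 1.31 FPKM in the other 7. Itga6-203, a 3-exon transcript of the gene's end annotated without a coding sequence, did the reverse, at 0.0448 to 0.116 FPKM in the first 5 and 10.8 to 15.1 in the other 7. The sorting cut across the groups, and its source was not tested.

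Itgb4, on chromosome 11 (115974709 to 116008412, plus strand), stood at 20.2, 21.7, 23.6 and 21.2 FPKM in controls, 39.9, 21.8, 25.3 and 14.9 in DSS, and 23.1, 36.7, 31.7 and 41.2 in FGF1. The controls lay close together and both treated groups were wide; in 15 of 16 pairs of libraries the FGF1 library was above the control. The log2 fold change in FGF1 against control was 0.56 (SE 0.25, 95% interval 0.03 to 1.10, limma adjusted p = 0.328). It was 0.42 in FGF1 against DSS (limma adjusted p = 0.514) and 0.14 in DSS against control, which turned to -0.0953 without DSS library 1. With the epithelial marker mean as a covariate the FGF1 difference from control was 0.00324 (SE 0.487). That mean did not overlap between control and FGF1 libraries, so this fit cannot separate it from the group.

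2 exons of Itgb4 are used in some transcripts and skipped in others, both in the part that encodes the cytoplasmic tail. They are shown because they separate the transcripts on which the libraries differed; each is whole codons long, 65 and 53, so that skipping keeps the reading frame, and both come from GENCODE vM21 on GRCm38.
Itgb4 exon of 195 bases (in Itgb4-203 and Itgb4-205), chr11:116004904-116005098, plus strand: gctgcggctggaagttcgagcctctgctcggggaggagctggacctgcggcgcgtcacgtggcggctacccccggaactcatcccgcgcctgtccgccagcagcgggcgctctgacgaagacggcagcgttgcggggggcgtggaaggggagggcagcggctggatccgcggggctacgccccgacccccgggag
Itgb4 exon of 159 bases (in Itgb4-201, Itgb4-204 and Itgb4-210), chr11:116005897-116006055, plus strand: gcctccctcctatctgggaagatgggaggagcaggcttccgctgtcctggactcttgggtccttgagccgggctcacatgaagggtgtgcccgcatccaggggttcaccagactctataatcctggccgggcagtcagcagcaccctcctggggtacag
No listed transcript holds both, and Itgb4-202 holds neither.

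Itgb4-202, which skips both exons, stood at 5.64, 6.01, 4.24 and 5.73 FPKM in controls, 19.7, 4.58, 18.4 and 11.5 in DSS, and 12, 14.9, 10.2 and 22.9 in FGF1. All FGF1 libraries were above all controls, and 3 of 4 DSS libraries were. The share of all tested transcripts with such a separation was not counted. Its log2 fold change was 1.27 in FGF1 against control (SE 0.38, limma adjusted p = 0.399) and 1.02 in DSS against control (SE 0.38, limma adjusted p = 0.2), the latter called once DSS library 2 was left out. It held 25.1% ± 4.77 of the gene in controls, 55.0% ± 25.7 in DSS libraries and 45.0% ± 10.6 in FGF1 libraries (SD, n = 4 each), with an exact permutation p of 0.0286 for FGF1 against control (adjusted 0.257). The 195-base exon was included at 22.5%, 42.2%, 3.83% and 65.6% in controls, 0.269%, 38.5%, 0.431% and 0.294% in DSS, and 41.5%, 53.6%, 34.0% and 8.64% in FGF1. It was near 0 in 3 of 4 DSS libraries and in no FGF1 library, with an exact permutation p of 0.0857 for FGF1 against DSS (adjusted 0.6 over 9 tests). The 159-base exon was included at 48.3%, 28.1%, 76.3% and 0.267% in controls, 49.1%, 37.8%, 0.52% and 0.0492% in DSS, and 1.14%, 0.106%, 31.8% and 0.68% in FGF1. No comparison of it gave an exact permutation p under 0.229.

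Cd151 was the most abundant of the 7 genes and had the only negative difference of the 6 tested in DSS against control. It lies on chromosome 7 (141467392 to 141471473, plus strand) and stood at 42.8, 72.9, 74.6 and 47.1 FPKM in controls, 51.9, 42.2, 43.0 and 53.7 in DSS, and 43.0, 64.8, 74.5 and 50.0 in FGF1. Controls and FGF1 each held a pair at 42.8 to 50.0 FPKM (libraries 1 and 4) and a pair at 64.8 to 74.6 (libraries 2 and 3), and the 4 DSS libraries lay at 42.2 to 53.7. The log2 fold change was -0.27 in DSS against control (SE 0.21, limma adjusted p = 0.442), 0.25 in FGF1 against DSS and -0.02 in FGF1 against control (95% interval -0.48 to 0.44), which was 0.0514 with median-of-ratios scaling. Most of its FPKM was held by Cd151-203 and Cd151-202, which share a coding length of 759 bases. Cd151-203 held 27.7% to 89.2% of the gene, and its groups overlapped in each comparison (smallest exact permutation p = 0.429).

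Plec, the plectin gene, is on chromosome 15 (76170974 to 76232574, minus strand) and stood at 3.19, 24.4, 28.0 and 23.2 FPKM in controls, 26.4, 27.6, 14.2 and 13.6 in DSS, and 22.7, 27.7, 33.2 and 26.3 in FGF1. Control library 1 was far below the others, and DSS libraries 3 and 4 formed a lower pair. The log2 fold change in DSS against control was 0.30 (SE 0.51, limma adjusted p = 0.754), and it turned to -0.355 (SE 0.243) without control library 1. In FGF1 against control it was 0.77 (SE 0.51, limma adjusted p = 0.541), and 0.112 without that library. DSS libraries 3 and 4 also had the fewest transcripts with FPKM above 0 (45795 and 47597 against 50174 to 54313). Their smooth muscle marker means (6.0 and 5.04) were lower than those of DSS libraries 1 and 2 (6.84 and 6.75). FGF1 library 4 had a smooth muscle marker mean of 5.97, with Plec at 26.3 FPKM. With the smooth muscle mean as a covariate the DSS difference of Plec from control was 1.12 (SE 0.626, limma adjusted p = 0.45). That mean did not overlap between control and DSS libraries, so this fit cannot separate it from the group. The part of transcript number in these Plec values was not tested. In Dst, the gene of the related linker dystonin, DSS libraries 3 and 4 stood at 5.75 and 8.25 FPKM. Dst stood at 25.1 and 21.7 in DSS libraries 1 and 2 and at 18.2 to 38.2 in the control and FGF1 libraries, with 38.2 in FGF1 library 4.

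Plectin is made from a row of alternative first exons that give it different amino ends, and in 11 of 12 libraries 1 transcript held 55.3% or more of the gene. The coding starts of the 5 transcripts that lead in some library are shown because they are what tells these transcripts apart; they come from GENCODE vM21 on GRCm38, minus strand, with the start codon in capitals, and for Plec-205 the first 120 of 541 coding bases are given.
Plec-201, chr15:76195424-76195535: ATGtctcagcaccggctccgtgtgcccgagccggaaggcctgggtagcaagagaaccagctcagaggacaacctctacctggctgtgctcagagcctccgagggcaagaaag
Plec-204, chr15:76197980-76198112: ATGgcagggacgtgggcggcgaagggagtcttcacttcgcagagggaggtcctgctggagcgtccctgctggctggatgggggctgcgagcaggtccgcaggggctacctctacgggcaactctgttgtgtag
Plec-205, chr15:76206019-76206138: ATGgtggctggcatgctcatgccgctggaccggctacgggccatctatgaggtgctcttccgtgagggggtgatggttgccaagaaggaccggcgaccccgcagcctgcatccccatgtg
Plec-203, chr15:76208965-76209010: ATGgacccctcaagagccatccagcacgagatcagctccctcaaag
Plec-206, chr15:76229358-76229442: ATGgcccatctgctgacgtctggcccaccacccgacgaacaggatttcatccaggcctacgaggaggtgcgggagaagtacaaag
They are ordered from the start nearest the gene's shared exons to the farthest.

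Plec-201 led in 5 libraries (control 3, DSS 1, DSS 2, FGF1 3 and FGF1 4), with 63.0% to 96.9% of the gene. Plec-205 led in 4 (control 4, DSS 3, DSS 4 and FGF1 1), with 95.3% to 99.6%, and was at most 0.0134 FPKM in the other 8. Plec-203 held 96.2% in FGF1 2 alone, at 26.6 FPKM, and at most 0.0813 FPKM elsewhere. Plec-204 held 55.3% in control 2. In control 1, the library with little Plec, Plec-201 and Plec-206 held 37.8% each. The leading transcript changed inside each group, and the share of Plec-201 overlapped between groups (30.3% ± 26.7, 42.5% ± 49.8 and 42.8% ± 50.2 in control, DSS and FGF1; SD, n = 4 each). These transcripts share nearly all of their 14855 to 15455 bases, and the source of the changes was not tested. Plec-211, which lacks the exon of 3381 bases that encodes the rod of plectin, stood at 0.0542 to 1.38 FPKM.

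**Figure D4:**
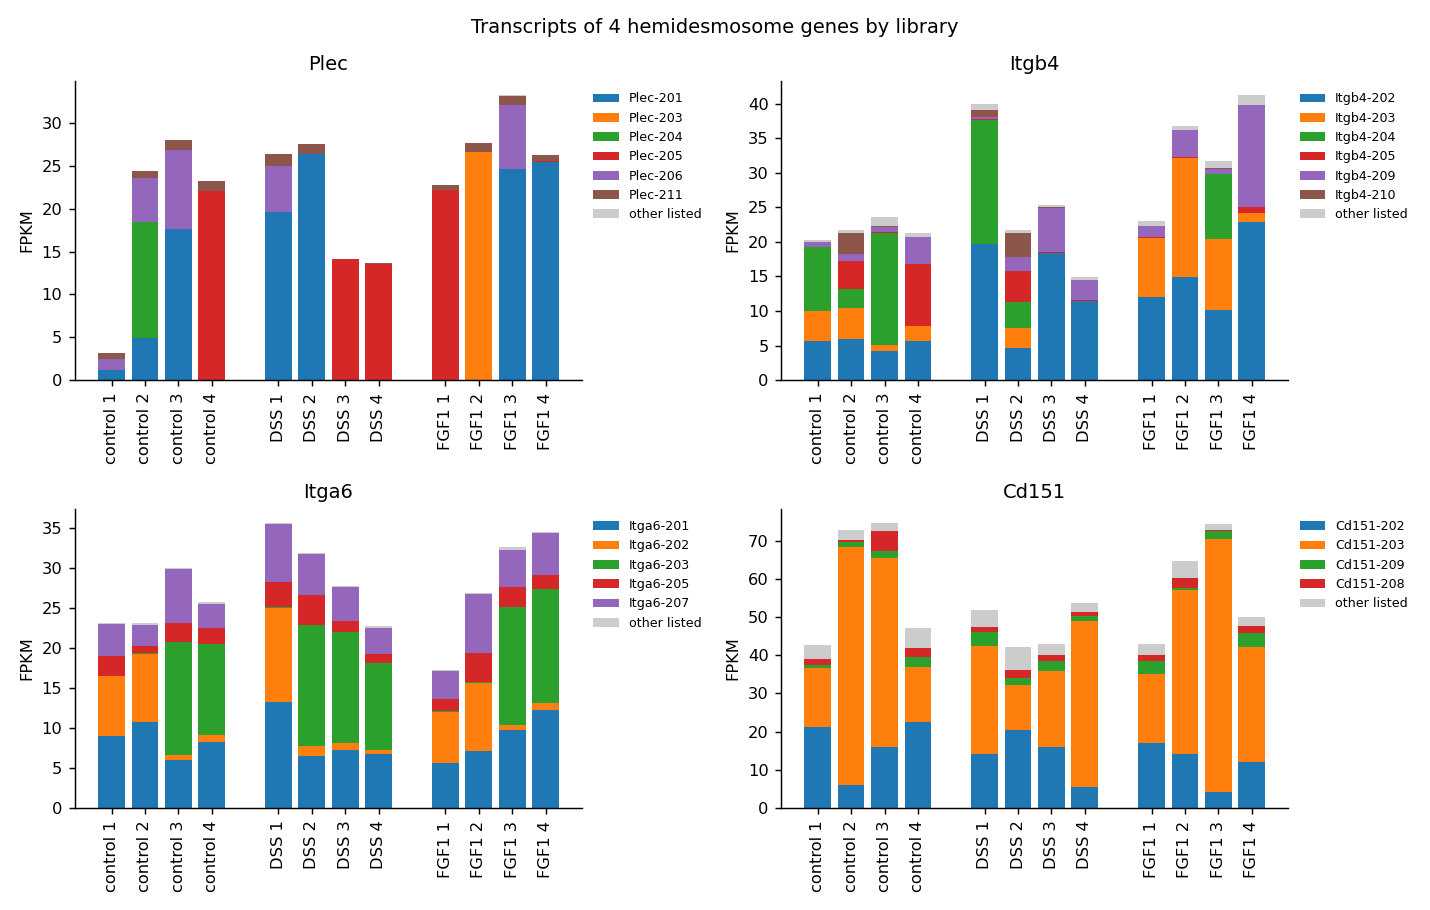
FPKM of the listed transcripts of Plec, Itgb4, Itga6 and Cd151, stacked, in each of the 12 libraries; minor transcripts are pooled as other listed. In Plec a single transcript fills most of the bar in most libraries and changes within each group, and in Itga6 the transcripts 202 and 203 replace each other. In Itgb4 the transcript without both alternative exons (Itgb4-202) is at 10.2 to 22.9 FPKM in FGF1 and 4.24 to 6.01 FPKM in controls, a difference not called (limma adjusted p = 0.399).

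Col17a1, the collagen XVII gene on chromosome 19 (47646344 to 47692094, minus strand), was not tested. Its only listed transcript stood at 0.0236, 0, 0.051 and 0 FPKM in controls, 0, 0.0568, 0 and 0 in DSS, and 0.00815, 0.0289, 0 and 0 in FGF1. Genes of stratified epithelium, which borders the colon at the anus, were low beside it: of 12 such markers, 10 were under 1 FPKM in all libraries, among them Krt5 (at most 0.342 FPKM), Krt14 (0.592) and Trp63 (0.0402). The other 2 were Krt10 (1.56 to 2.40 FPKM) and Sprr1a, a gene of stress-exposed epithelium (2.78 to 51.9 FPKM). Keratins of simple epithelium were abundant: Krt8 averaged 1630 FPKM in controls and Krt19 averaged 1240.

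Genes of the wider matrix and adhesion pathway were read in 6 lists in DSS against control, where 10.1% of all tested genes were called lower and 2.23% higher. Here and below, fell and rose mean called lower and called higher. Log2 fold changes were above 0 in 1 of 9 laminin chains and partners, 1 of 11 basement membrane genes and 3 of 14 integrins and receptors. They were above 0 in 1 of 16 focal adhesion linkers, 7 of 15 plakins, keratins and tetraspanins and 2 of 13 genes of processing and turnover. Of 9 tested laminin chains and partners other than Lama3 and Lamb3, 4 fell and none rose (median log2 fold change -0.82): Lamb1 (-1.79), Lama4 (-1.30), Nid1 (-1.84) and Lamb2 (-1.27), chains and a linker of the common basement membrane network. Of 11 other basement membrane genes, 8 fell and 1 rose (median -1.69). The falls included Col15a1 (-1.90), Sparc (-2.40), Fbln1 (-2.41) and the perlecan gene Hspg2 (-1.69), and the gene that rose was Agrn, which encodes the proteoglycan agrin (0.38, limma adjusted p = 0.0433). Of 14 other integrins and laminin receptors 6 fell (median -0.51), among them Itgb5 (-0.84), Itga5 (-1.43), Itga9 (-1.80) and the laminin receptor gene Bcam (-1.39). Of 16 linkers of focal adhesions, the actin-bound junctions of other integrins, 6 fell (median -0.46), among them Ilk (-0.86), Parvb (-0.84), Fermt2 (-2.10) and Zyx (-0.90).

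Among 15 plakins, keratins and tetraspanins 2 fell (median -0.05), a share near the 10.1% of all tested genes: Cd81 (-1.12), a tetraspanin, and Evpl (-0.61), the envoplakin gene. Among 13 genes of laminin processing and matrix turnover 4 fell and 1 rose (median -0.64). Plau (-1.83), Loxl2 (-2.17) and Mmp2 (-2.18) fell, and Mmp7, the epithelial protease matrilysin, rose from 0.693 ± 0.328 to 6.64 ± 4.32 FPKM (SD, n = 4 each; log2 fold change 1.98, limma adjusted p = 0.0194). No gene of these 6 lists was called in FGF1 against DSS or in FGF1 against control, where 0.0557% and 0.0795% of all tested genes were, so that this count is near the background. Their medians, in the order given (laminin chains, basement membrane, integrins, focal adhesion linkers, plakins and keratins, processing), were 0.55, 0.88, 0.28, 0.22, 0.26 and 0.35 in FGF1 against DSS. In FGF1 against control they were -0.48, -0.77, -0.48, -0.15, 0.03 and -0.31.

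Markers of other cell types moved with these lists. All 10 fibroblast markers fell in DSS against control (median -2.57), and their summed level was 291 to 409 FPKM in controls, 17.0 to 105 in DSS and 87.0 to 248 in FGF1. Of 7 endothelial markers 6 fell (median -1.48), with sums of 55.6 to 67.1, 8.80 to 34.9 and 22.1 to 38.3 FPKM. Of 11 smooth muscle markers 3 fell (median -1.81), with sums of 2720 to 8450, 624 to 2090 and 1220 to 7510 FPKM. None of the 7 endothelial or 11 smooth muscle markers had a log2 fold change above 0 in DSS against control. Of 9 general epithelial markers 1 rose, Lgals4 (0.54, limma adjusted p = 0.0379), and 8 of 9 had a log2 fold change above 0. The epithelial median was 0.21, beside 0.24 for the 6 laminin-332 and hemidesmosome genes. In FGF1 against DSS the epithelial median was 0.04, beside 0.34 for the 6 genes. In FGF1 against control it was 0.26, beside 0.52. The epithelial sums were 3170 to 3600 FPKM in controls, 3940 to 4510 in DSS and 3930 to 4700 in FGF1. With the smooth muscle mean or the epithelial mean as a covariate, the genes called in DSS against control numbered 29 each, in place of 1549. Neither mean overlapped between control and DSS libraries. The smooth muscle mean was 7.24 to 8.90 against 5.04 to 6.84, and the epithelial mean was 7.85 to 7.97 against 8.06 to 8.18. These fits therefore cannot separate a marker mean from the group.

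**Figure D5:**
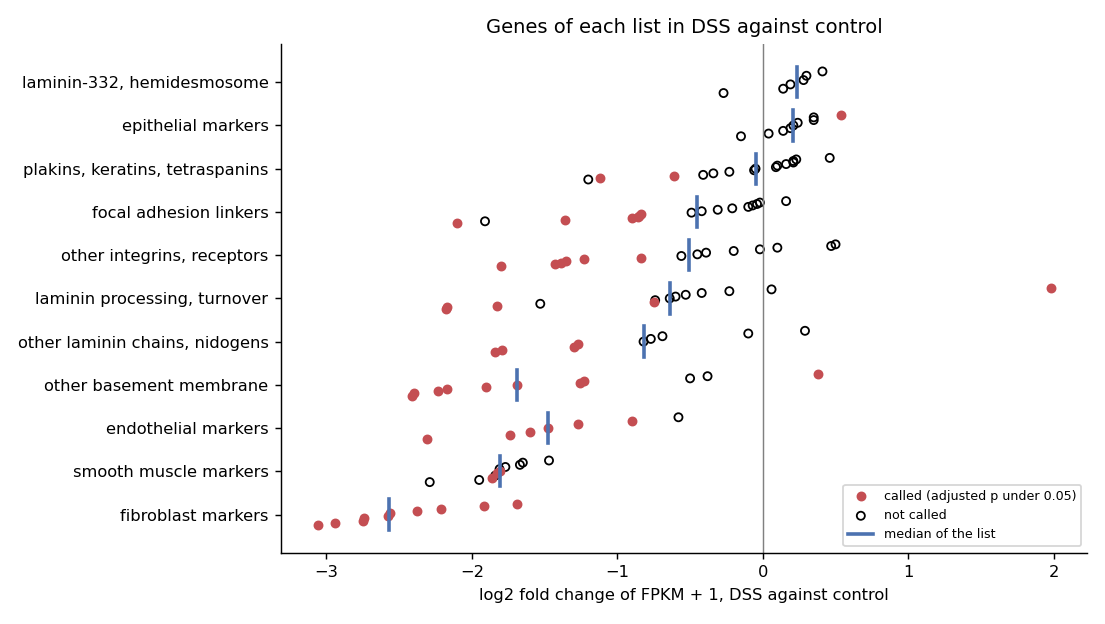
Log2 fold change of FPKM + 1 in DSS against control (horizontal axis) for each tested gene of 11 lists; filled points were called and open points were not, and the bar is the list median. Most of the laminin-332 and hemidesmosome genes (5 of 6, median 0.24) and of the epithelial markers (8 of 9, median 0.21) lie above 0. The fibroblast markers lie farthest to the left (median -2.57).

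For each gene the nearest profiles were sought among all tested genes, by the root mean square difference of centred log2(FPKM + 1) over the 12 libraries. Small differences follow from picking the nearest of so many genes, and no baseline was computed. Itgb4 lay nearest to S100a11, a calcium-binding protein gene (difference 0.11, against a spread of Itgb4 itself of 0.411), and to Capn8 (0.17). Lama3 lay nearest to Prss22 (0.278, against 0.64) and Gm1673 (0.325). Prss22 was listed at 0 in the controls, and averaged 0.888 FPKM in DSS and 2.30 in FGF1. It thus passed the filter without the controls and lies near the floor, so its likeness to Lama3 is no separate evidence on Lama3. Lamb3 lay nearest to Ccdc120 (0.125) and Plekhh1 (0.126), Itga6 to C530008M17Rik (0.141) and 1700058P15Rik (0.15), Plec to Bckdhb (0.322) and Zfp7 (0.407), and Cd151 to Fam3a (0.175) and Prpf39 (0.176).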

How the data were processed

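The 12 libraries were built from 5 ug of total colon RNA each by poly(A) selection, per the labels' protocols. The submitters' processing notes name StringTie 1.3.4d, HISAT2 2.0.4, cutadapt 1.9, edgeR and the build GRCm38, without their roles. The authors deposited a table of transcript structure events, each with its transcript's FPKM per library; transcripts that enter no event are not in it, a transcript not listed in a library was set to 0, and fragment counts and depth are unknown. A gene's value is the sum of FPKM over its listed transcripts.

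Genes with at least 1 FPKM in at least 4 libraries entered 1 limma fit over the 12 libraries (limma 3.58.1 under R 4.3.3, trend, two-sided) on log2(FPKM + 1), with Benjamini-Hochberg adjustment and a call under 0.05; the fit was tested on simulated data. Shares of transcripts were compared with exact two-sided permutation tests (scipy 1.17.1). Transcript lengths, positions and sequences came from GENCODE vM21 (GRCm38); 74068 of 74659 transcripts had a length. The members, gene lists and tests were chosen with earlier results of these data known. The text names the members with their transcripts, up to 4 called genes of each list with the smallest adjusted p, and the 2 nearest profiles of each member; Agrn, Krt5, Krt14, Krt10, Trp63, Sprr1a, Krt8, Krt19 and Dst were named outside this rule, after their values were seen. A result on 1 further gene is not reported here. Of 7 glia and 8 skeletal muscle markers, 6 and 2 were tested, and 1 of them, Ckm, fell in DSS against control. Deviations of same-numbered libraries correlated at -0.217 to 0.399; they passed 0.1 for FGF1 and control libraries 2 (0.167) and 3 (0.399) and for 1 pair of FGF1 and DSS (0.119), but not for every pair of any comparison, so numbers were not taken as pairs.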

Additional observations from a re-analysis of the deposited data

Results flagged for a closer look

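Within groups of 4 libraries, 11 of 84 values tested had 1 library far from the others, all of them single transcripts. The cutoff flags about 1 in 20 groups of independent, normally distributed values. Transcript values hold zeros and are not independent within a gene, so that rate does not apply to the 11 of 84. In Plec, Plec-205 stood at 22.1 FPKM in control library 4 and at 22.2 FPKM in FGF1 library 1, against at most 0.0134 and 0.00899 in the other libraries of those groups. Plec-206 stood at 5.43 FPKM in DSS library 1 and at 7.43 FPKM in FGF1 library 3, and was listed at 0 in the other libraries of both groups. In Itgb4, Itgb4-203 stood at 3.02 FPKM in DSS library 2 and Itgb4-204 at 9.43 FPKM in FGF1 library 3, each listed at 0 in the rest of its group. Itgb4-209, a transcript annotated without a coding sequence, stood at 3.94 FPKM in control library 4 against 0.639 to 1.00 in the other controls.

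In Lama3, the long transcript Lama3-201 stood at 1.87 FPKM in control library 3 against 2.79 to 2.88 in the other controls. The short transcript Lama3-202 stood at 1.53 FPKM in DSS library 1 against 0 to 0.171 in the other DSS libraries. That library also stood apart in Itga6, with Itga6-201 at 13.2 FPKM against 6.45 to 7.25 and Itga6-202 at 11.8 FPKM against 0.583 to 1.31.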

How the results depend on the processing

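Of 468 values of the 6 tested genes (18 results under 26 alternatives), 434 kept their direction and side of the threshold, 6 newly passed it (all Lama3) and 28 changed sign, none of those called. The cause was not tested for any of them. Depth is unknown, since the values are FPKM, so counting error cannot be given. The added alternatives (without DSS libraries 3 and 4, without control 3 and FGF1 3, exon inclusion, FPKM times transcript length) were chosen after seeing the data.

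Genes called in DSS against control numbered 1549, and 1028 with a replicate block, 727 with values of start events, 844 with the most abundant transcript only, 29 with the smooth muscle mean and 29 with the epithelial mean as covariate, 168 without DSS libraries 3 and 4, and 692 (without DSS 3) to 1998 (without DSS 1) leaving out 1 library. In FGF1 against DSS 7 became 3 with a filter of 0.5 FPKM, 15 with median-of-ratios scaling, 3 in a fit of the 2 groups, 2 with the replicate block, 1 with start events, 2 and 3 with the smooth muscle and epithelial covariates, 0 without DSS libraries 3 and 4, 2 without control 3 and FGF1 3, and 0 (without FGF1 2) to 43 (without DSS 1) leaving out 1 library. In FGF1 against control 10 became 0 and 1 with pseudocounts of 0.1 and 0.5, 50 with no filter, 22 with the filter of 0.5 FPKM, 38 in a fit of the 2 groups, 1 with the replicate block, 1 with start events, 2 and 0 with the smooth muscle and epithelial covariates, 38 without DSS libraries 3 and 4, 38 without control 3 and FGF1 3, and 1 (without control 2 or FGF1 2) to 83 (without FGF1 3) leaving out 1 library. Of the 6 genes, 1 was called in FGF1 against control with median-of-ratios scaling, 1 in the fit of the 2 groups and 1 without DSS libraries 3 and 4; leaving out 1 library gave 0 to 1 there and 0 to 1 in FGF1 against DSS, and of member transcripts 0 to 1 in DSS against control. The replicate block changed no call of the 6 genes; under it Lama3 had an adjusted p of 0.185 against control and 0.214 against DSS.

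Log2 fold changes that changed sign were as follows. In DSS against control, Itga6 gave -0.0447 with the most abundant transcript only, and with the epithelial covariate Lama3 gave -0.204, Lamb3 -0.0246, Itga6 -0.138 and Itgb4 -0.261. Leaving out 1 library, Plec ran from -0.355 to 0.575 and Itgb4 from -0.0953 to 0.359. In FGF1 against DSS, Lamb3 gave -0.00396 with median-of-ratios scaling, -0.106 with the epithelial covariate and -0.0746 without DSS libraries 3 and 4. With the most abundant transcript only, Lama3 gave -0.66 and Itga6 0.0386, and Plec gave -0.052 with the smooth muscle covariate; Itga6 ran from -0.227 to 0.095 leaving out 1 library. In FGF1 against control, Cd151 gave 0.0514 with median-of-ratios scaling, 0.281 with the most abundant transcript only, and 0.0366 and 0.239 with the smooth muscle and epithelial covariates. With the most abundant transcript only, Lama3 gave -0.278 and Itga6 -0.00613, and with the epithelial covariate Lamb3 gave -0.13 and Itga6 -0.376. Leaving out 1 library, Cd151 ran from -0.16 to 0.111 and Itga6 from -0.034 to 0.288.

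Shares that changed sign on leaving out 1 library, in percentage points, were those of Lamb3-201 in FGF1 against DSS (-0.0158 to 0.0388), Itga6-201 in FGF1 against control (-8.24 to 0.579) and Cd151-203 in DSS against control (-11.8 to 7.98). Plec-201 ran from -5.55 to 26.4 in DSS against control, -17.8 to 18.0 in FGF1 against DSS and -5.57 to 26.7 in FGF1 against control. In FGF1 against control, inclusion of the Itga6 130-base exon ran from -6.58 to 2.22 and of the Itgb4 195-base exon from -8.99 to 11.6.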
